A study of Mus musculus with 32 samples.

Results

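Prostanoids are the prostaglandins, prostacyclin and thromboxane, short-lived lipids that act close to the cell that makes them. The RNA of 10 genes that make, inactivate or sense prostanoids was followed in mouse kidneys with and without polycystic kidney disease (PKD). The members are *Pla2g4a*, *Ptgs1*, *Ptgs2*, *Ptges*, *Ptgds*, *Ptgis*, *Tbxas1*, *Hpgd*, *Ptger2* and *Ptger4*, taken by name from the 53700 genes of the count table. In PKD kidneys *Ptgds*, the lipocalin-type prostaglandin D synthase, was 19.0-fold higher than in wildtype kidneys, and *Ptger4*, a prostaglandin E receptor, was 2.06-fold higher. Of the cyclooxygenase genes, *Ptgs1* was slightly lower and *Ptgs2*, with few counts, was 1.64-fold higher with a wide interval. Neither of these calls held against both sets of wildtype libraries described below. None of the 10 genes passed the test between PKD kidneys with and without salsalate.

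Kidneys came from male C57BL/6 mice. The PKD mice were of the iKspCre-*Pkd1*del line. This line carries a tamoxifen-inducible Cre under the Ksp-cadherin promoter of tubule epithelium and loxP sites in *Pkd1*, the gene most often mutated in human PKD. The paper does not state whether the wildtype mice carried the Cre and the loxP sites. The 12 PKD mice received 150 mg/kg tamoxifen by gavage on days 18 and 19, stayed on normal chow and were 95 days old at collection. The 12 PKD + Salsalate mice had the same induction and age and were switched to chow with 2.5 g/kg salsalate on day 81, for 2 weeks. Salsalate is a salicylate prodrug of the class of nonsteroidal anti-inflammatory drugs, whose best known targets are the cyclooxygenases. The paper describes its inhibition of these enzymes as weak next to that of aspirin. It studied salsalate as a direct activator of AMP-activated protein kinase. The 8 wildtype kidneys were of mice that had no tamoxifen, and their labelled age is 109 days, although the growth protocol has all mice end at day 95, so that it is not known whether age differed. Tamoxifen and the *Pkd1* deletion, and age if the label is right, differed together between wildtype and PKD mice and cannot be told apart. The same holds for the Cre and the loxP sites if the wildtype mice lacked them. Mice whose blood urea had reached end-stage values before day 95 were not kept to the end, and the sequenced PKD mice of both groups were picked by the authors for a comparably mild cystic phenotype. Of the 8 wildtype libraries, 5 carry a final R in their name, which no PKD library has and no label explains, and calls against wildtype that change with the set of wildtype libraries are given for each.

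Phospholipase A enzymes release arachidonic acid from membranes, cyclooxygenases turn it into prostaglandin H, and a separate synthase then makes each prostanoid. Prostaglandin E is the main prostanoid of the renal medulla and acts on salt and water transport, renin release and blood flow. Its receptors EP2 and EP4 raise cyclic AMP, a second messenger known to promote fluid secretion and growth of cyst epithelium. Prostaglandin dehydrogenase, encoded by *Hpgd*, starts the inactivation of prostaglandins after uptake into cells.

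Depth ranged from 11193136 to 109807664 counts on genes, and a level of 1 CPM (counts scaled to a common library size) stood for 11.2 counts in the smallest library. Levels are CPM after scaling by the trimmed mean of M-values (TMM), and differences are log2 fold changes of edgeR's quasi-likelihood test with Benjamini-Hochberg adjustment over 13961 genes. These genes exceeded 1 on the log2 CPM scale in 25% or more of the 32 kidneys, and 8 of the 10 members were among them. *Ptgs2* and *Ptger2* stayed below that limit and were tested in a fit of all 33588 genes with a count. The kidneys expressed all 8 proximal tubule markers examined, with a summed level between 14589.5 and 29650.5 CPM. *Pkd1* was counted over the whole gene, exons outside the deleted stretch included, so that its mean of 68.7 CPM in wildtype, 92.1 CPM in PKD and 92.7 CPM in PKD + Salsalate kidneys does not check the deletion. Summed liver markers reached 7153 CPM in PKD replicate 10, against at most 1890 CPM in treated kidneys, and leaving that kidney out changed no call of a member. In RNA of whole kidney, fewer cells of a type and less RNA per cell cannot be told apart.

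Of the 8 members that passed the filter, 6 were called in PKD against wildtype kidneys, where 49.1% of all tested genes were called. The 3 called higher were *Ptgds*, *Tbxas1* and *Ptger4*, beside 24.1% of tested genes called higher. The 3 called lower were *Ptgs1*, *Ptges* and *Ptgis*, beside 25.0% of tested genes called lower. The median log2 fold change was 0.03 over the 8 members and -0.01 over all tested genes. The number of members called was thus read against a high background, and the size of single changes carries the description that follows.

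**Figure D1:**
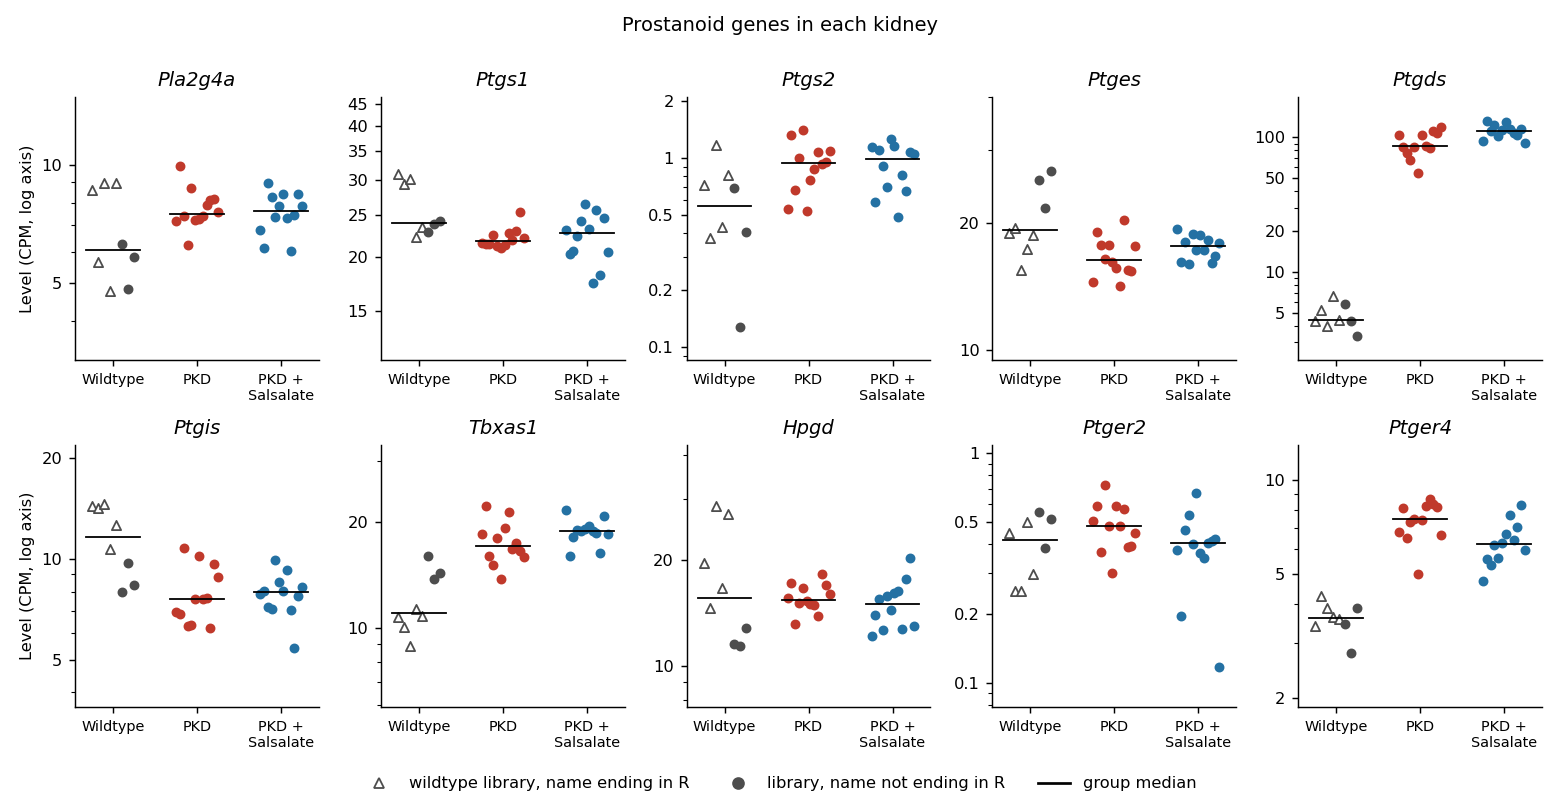
Level of each of the 10 prostanoid genes (CPM, log axis) in 8 wildtype, 12 PKD and 12 PKD + Salsalate kidneys. Each point is 1 kidney, triangles are the 5 wildtype libraries with a final R in the name, and lines are group medians. For *Ptgds* and *Ptger4* all PKD and PKD + Salsalate kidneys lie above all wildtype kidneys. Of all tested genes, 7.28% are separated from wildtype without overlap in PKD and 6.39% in PKD + Salsalate kidneys.

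The first step, release of arachidonic acid, was represented by *Pla2g4a* (ENSMUSG00000056220, chromosome 1), the cytosolic phospholipase A. Its level was between 4.76 and 8.97 CPM in wildtype kidneys with a median of 6.04, between 6.24 and 9.91 CPM in PKD kidneys with a median of 7.50, and between 6.02 and 8.95 CPM in PKD + Salsalate kidneys with a median of 7.63. The groups overlapped, although all 12 PKD kidneys lay above the wildtype median. The log2 fold change in PKD was 0.22 (95% confidence interval -0.00 to 0.45, edgeR adjusted p = 0.0927). With the 3 wildtype libraries lacking R as the reference it was 0.45 (edgeR adjusted p = 0.00319), and with the 5 that have it 0.09 (edgeR adjusted p = 0.564). Leaving out wildtype replicate 1, 3 or 5 brought the adjusted p under 0.05 in turn, with values between 0.0303 and 0.0404.

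*Ptgs1* (ENSMUSG00000047250, chromosome 2, 36120438 to 36142287, plus strand, GRCm39) encodes the constitutive cyclooxygenase. Wildtype kidneys ranged from 22.2 to 31.1 CPM with a median of 24.0, PKD kidneys from 21.0 to 25.4 CPM with a median of 21.7, and PKD + Salsalate kidneys from 17.4 to 26.4 CPM with a median of 22.6. The PKD kidneys formed a narrow band at the lower end of the wildtype range, with 8 of 12 below the lowest wildtype kidney. *Ptgs1* fell in PKD, with a log2 fold change of -0.23 ± 0.07 (SE, edgeR adjusted p = 0.0105), a ratio of 0.855. The fall was -0.30 against the wildtype libraries with R (edgeR adjusted p = 0.00225), while against the 3 others the difference was -0.10 (edgeR adjusted p = 0.352).

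*Ptgs2* (ENSMUSG00000032487, chromosome 1, 149975194 to 149983978, plus strand), the inducible cyclooxygenase found mostly in macula densa and medullary interstitial cells, was close to the limit of detection in whole kidney. Between 2 and 15 counts fell on it in wildtype libraries, between 7 and 63 in PKD libraries and between 7 and 117 in PKD + Salsalate libraries. Levels ranged from 0.129 to 1.18 CPM in wildtype kidneys with a median of 0.561, from 0.528 to 1.40 CPM in PKD kidneys with a median of 0.947, and from 0.490 to 1.27 CPM in PKD + Salsalate kidneys with a median of 0.984. The groups overlapped widely, but 10 of 12 PKD kidneys were above the wildtype median. In the fit of all genes with a count, which called 23.5% of genes, *Ptgs2* rose by a log2 fold change of 0.71 (95% confidence interval 0.19 to 1.24, edgeR adjusted p = 0.0387). The call was lost in the blocked fit by replicate number (0.72, edgeR adjusted p = 0.0735), in a fit of wildtype and PKD kidneys alone (0.69, edgeR adjusted p = 0.0839) and against the wildtype libraries with R (0.44, edgeR adjusted p = 0.258). It was kept in 23 of the 32 fits that left out 1 kidney, and the highest adjusted p, 0.0958, came without wildtype replicate 7. Of the 6 markers of thick limb and macula densa, 5 passed the filter and 1, *Cldn10*, was called with all wildtype kidneys (lower, -0.51). Against the libraries with R, 2 were called higher and 1 lower, and against the others 4 were called lower. *Umod* was called at 0.49 with R (edgeR adjusted p = 0.00017) and -0.29 without (edgeR adjusted p = 0.0455). With all wildtype kidneys the log2 fold changes of the 5 ran from -0.51 to 0.17. The summed level of the 6 markers had a median of 2868 CPM in wildtype and 3332 CPM in PKD kidneys. *Nos1*, the marker of macula densa among them, was under 1 CPM on average and was lower in PKD in the fit of all genes with a count (-0.63, edgeR adjusted p = 0.0287), a call lost against the libraries with R (-0.51, edgeR adjusted p = 0.166). The part of such cells in the *Ptgs2* value was not tested.

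Per kilobase of canonical transcript, the levels of the 10 genes can be set side by side. *Hpgd* (10.1 CPM per kb) and *Ptgs1* (9.02 CPM per kb) led in wildtype kidneys, with overlapping ranges and *Hpgd* above *Ptgs1* in 4 of 8 kidneys. *Tbxas1*, *Ptges* and *Ptgis* followed at 5.93, 5.56 and 5.26 CPM per kb, also with overlapping ranges. *Ptgds* came 6th at 2.56 CPM per kb, below *Ptgis* in all 8 kidneys and overlapping *Pla2g4a* at 2.36 CPM per kb. *Ptger4* lay at 1.09 CPM per kb, and *Ptgs2* and *Ptger2* were lowest at 0.125 and 0.109 CPM per kb, with no order between them beyond their spread. In PKD kidneys *Ptgds* stood first at 48.6 CPM per kb, above *Hpgd* (8.91 CPM per kb) in all 12 kidneys and without overlap. *Hpgd*, *Tbxas1* (8.70) and *Ptgs1* (7.70 CPM per kb) were neighbours with overlapping ranges, followed after a gap by *Ptges*, *Ptgis*, *Pla2g4a* and *Ptger4* between 4.53 and 2.24 CPM per kb. *Ptgs2* and *Ptger2* were again last, at 0.196 and 0.132 CPM per kb. With salsalate *Ptgds* was first at 60.0 CPM per kb and the only exchange of places was between *Tbxas1* and *Hpgd*, whose ranges overlapped.

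**Figure D2:**
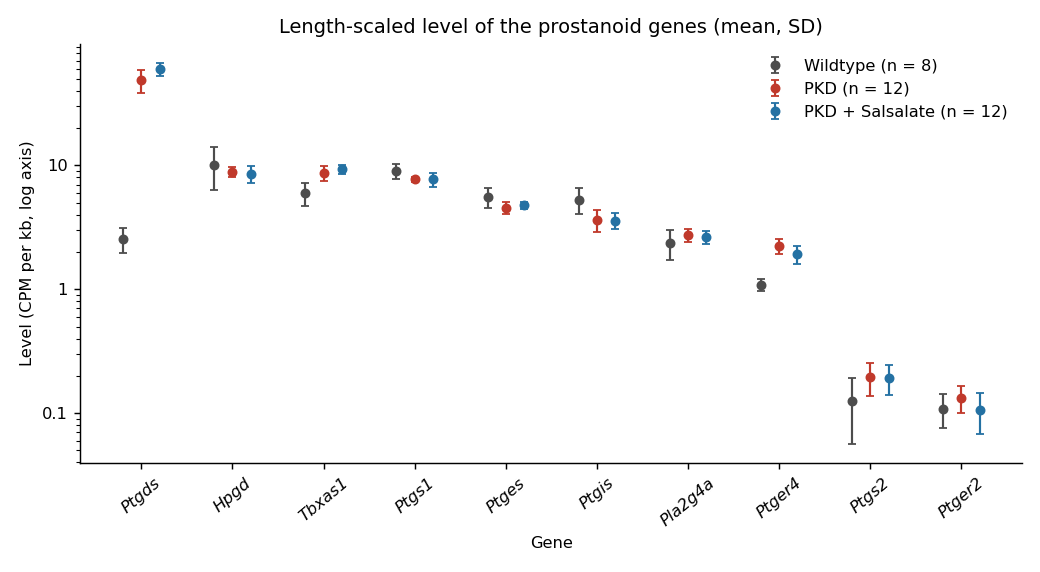
Mean level per kilobase of canonical transcript (CPM per kb, log axis) of the 10 genes in wildtype, PKD and PKD + Salsalate kidneys, ordered by the PKD mean, with bars for the SD over the kidneys of a group. *Ptgds* moves from 2.56 CPM per kb in wildtype to 48.6 CPM per kb in PKD kidneys, while *Ptgs2* and *Ptger2* stay below 0.2 CPM per kb on average in each group.

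Among the synthases, *Ptgds* (ENSMUSG00000015090, chromosome 2, 25352795 to 25362601, minus strand) changed most. It encodes a secreted lipocalin that makes prostaglandin D and also carries small lipophilic molecules, and it is filtered and taken up by the kidney. Its level was between 3.34 and 6.69 CPM in wildtype kidneys with a median of 4.38, between 54.1 and 119.5 CPM in PKD kidneys with a median of 85.6, and between 90.7 and 133 CPM in PKD + Salsalate kidneys with a median of 112. The lowest PKD kidney thus stood far above the highest wildtype kidney, a separation that 7.28% of the tested genes showed between these groups. The counts behind these levels were 46 to 128 in wildtype, 704 to 4122 in PKD and 1564 to 12171 in PKD + Salsalate libraries. The log2 fold change in PKD was 4.25 (95% confidence interval 3.95 to 4.54, edgeR adjusted p = 2.14e-21), the 10th highest and the smallest p-value among the 13961 tested genes. Relative to the libraries with R it was 4.19 and relative to the others 4.33, and leaving out any 1 kidney kept it between 4.17 and 4.33.

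*Ptges* (ENSMUSG00000050737, chromosome 2), the inducible microsomal prostaglandin E synthase, was between 15.5 and 26.7 CPM in wildtype kidneys with a median of 19.3. It was between 14.2 and 20.4 CPM in PKD kidneys with a median of 16.3 and between 16.0 and 19.4 CPM in PKD + Salsalate kidneys with a median of 17.6. The ranges overlapped, with 11 of 12 PKD kidneys below the wildtype median. *Ptges* fell in PKD by 0.30 ± 0.08 on the log2 scale (SE, edgeR adjusted p = 0.00226). The difference was -0.57 relative to the 3 libraries lacking R (edgeR adjusted p = 4.83e-06) and -0.11 relative to the 5 that have it (edgeR adjusted p = 0.21), and no kidney of the one set reached the levels of the other. *Ptges2* and *Ptges3*, the other prostaglandin E synthase genes, moved apart: *Ptges2* fell from 82.2 ± 6.14 (SD, n = 8) to 56.5 ± 7.09 CPM (SD, n = 12; log2 fold change -0.54, edgeR adjusted p = 2.73e-07), whereas *Ptges3* rose from 94.4 to 112 CPM (0.25, edgeR adjusted p = 0.00121). Both calls held against either set of wildtype libraries.

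*Ptgis* (ENSMUSG00000017969, chromosome 2), prostacyclin synthase of vessel walls, was between 7.99 and 14.7 CPM in wildtype kidneys with a median of 11.7, between 6.23 and 10.8 CPM in PKD kidneys with a median of 7.60, and between 5.41 and 9.93 CPM in PKD + Salsalate kidneys with a median of 7.96. All 12 PKD kidneys lay below the wildtype median, and 8 of them below the lowest wildtype kidney. The log2 fold change was -0.54 ± 0.12 (SE, edgeR adjusted p = 0.000535). Relative to the libraries with R it was -0.75 (edgeR adjusted p = 4.78e-06) but -0.14 against the others (edgeR adjusted p = 0.476), which ranged from 7.99 to 9.71 CPM, inside the PKD range. Of the 7 endothelial markers examined 2 rose and 2 fell, and their summed level was between 299 and 441 CPM in wildtype and between 332 and 363 CPM in PKD kidneys. Against the libraries with R, 2 were called higher and 3 lower, and against the others 4 higher and 1 lower. *Egfl7* was called at -0.64 with R (edgeR adjusted p = 4.55e-06) and 0.34 without (edgeR adjusted p = 0.0486). *Tek* was called at -0.28 with R (edgeR adjusted p = 0.000527) and 0.17 without (edgeR adjusted p = 0.0336). Of 4 smooth muscle markers 2 rose, *Acta2* (1.36) and *Tagln* (1.33), while *Cnn1* (0.26) and *Myh11* (-0.11) were not called, and the summed level was between 79.8 and 173 CPM in wildtype and between 237 and 307 CPM in PKD kidneys. The part of vessel cells in the *Ptgis* value was not tested.

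*Tbxas1* (ENSMUSG00000029925, chromosome 6), thromboxane synthase of platelets and macrophages, was between 8.88 and 16.0 CPM in wildtype kidneys with a median of 11.0, between 13.8 and 22.2 CPM in PKD kidneys with a median of 17.1, and between 16.1 and 21.7 CPM in PKD + Salsalate kidneys with a median of 18.9. PKD and wildtype ranges overlapped, with 9 of 12 PKD kidneys above the highest wildtype kidney. *Tbxas1* rose in PKD by a log2 fold change of 0.55 ± 0.09 (SE, edgeR adjusted p = 1.07e-05). The rise was 0.77 against the wildtype libraries with R (edgeR adjusted p = 3.06e-08) and 0.26 against the others (edgeR adjusted p = 0.0489). All 10 macrophage markers rose in the same comparison, and their summed level was between 159 and 249 CPM in wildtype, between 361 and 569 CPM in PKD and between 322 and 645 CPM in PKD + Salsalate kidneys. Among 5 platelet markers *Gp1bb* was at 0 in all kidneys. *Pf4* rose (log2 fold change 0.89, edgeR adjusted p = 0.00105), but its highest wildtype level was 1.64 CPM, so that it passed the filter through the PKD groups. *Itga2b* fell (-0.55, edgeR adjusted p = 2.29e-06). *Ppbp* and *Gp9* did not pass the filter and had lower means in PKD kidneys. *Ppbp* went from 0.322 to 0.202 CPM and *Gp9* from 0.207 to 0.0848 CPM. The summed level of the platelet markers was 13.7 to 19.0 CPM in wildtype and 9.30 to 13.8 CPM in PKD kidneys. The part of these cells in the *Tbxas1* value was not tested.

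Inactivation was represented by *Hpgd* (ENSMUSG00000031613, chromosome 8), which ranged from 11.4 to 28.5 CPM in wildtype kidneys with a median of 15.7, from 13.1 to 18.3 CPM in PKD kidneys with a median of 15.4, and from 12.2 to 20.4 CPM in PKD + Salsalate kidneys with a median of 15.0. The wildtype group was the most spread. Its libraries with R lay at 14.6 to 28.5 CPM with an SD of 6.24 CPM and the others at 11.4 to 12.8 CPM with an SD of 0.779 CPM, compared with 1.45 CPM in PKD kidneys. No difference passed the test with all 8 wildtype kidneys (log2 fold change -0.17, 95% confidence interval -0.44 to 0.10, edgeR adjusted p = 0.296). The direction turned with the wildtype set: *Hpgd* was lower in PKD kidneys against the libraries with R (-0.44, edgeR adjusted p = 0.00218) and higher against those without (0.38, edgeR adjusted p = 0.00971).

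*Ptger4* (ENSMUSG00000039942, chromosome 15, 5236142 to 5273673, minus strand) encodes the EP4 receptor of prostaglandin E, present on tubule, vascular and myeloid cells. Wildtype kidneys ranged from 2.79 to 4.25 CPM with a median of 3.61, PKD kidneys from 5.00 to 8.67 CPM with a median of 7.49, and PKD + Salsalate kidneys from 4.75 to 8.30 CPM with a median of 6.24. All kidneys of both PKD groups lay above the highest wildtype kidney. Of all tested genes, 7.28% were separated from wildtype without overlap in PKD and 6.39% in PKD + Salsalate kidneys. The log2 fold change in PKD was 1.04 (95% confidence interval 0.83 to 1.25, edgeR adjusted p = 8.43e-10). Relative to the libraries with R it was 0.98 and 1.12 against the others, and between 0.99 and 1.08 with any 1 kidney left out. An exon of *Ttc33* overlaps *Ptger4* on the opposite strand. Reads were counted by strand, which keeps such genes apart, but carry-over of reads between strands was not measured. Exons of *Ptgs1*, *Ptgs2*, *Ptgis*, *Tbxas1* and *Ptger2* also overlap exons of other counted genes on the opposite strand.

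*Ptger2* (ENSMUSG00000037759, chromosome 14), the EP2 receptor gene, was the lowest member. It had 3 to 14 counts in wildtype, 4 to 28 in PKD and 2 to 49 in PKD + Salsalate libraries, that is medians of 0.418, 0.481 and 0.405 CPM. The ranges of all groups overlapped, and at this depth no difference was detectable between PKD and wildtype kidneys (log2 fold change 0.26, 95% confidence interval -0.21 to 0.73, edgeR adjusted p = 0.471).

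**Figure D3:**
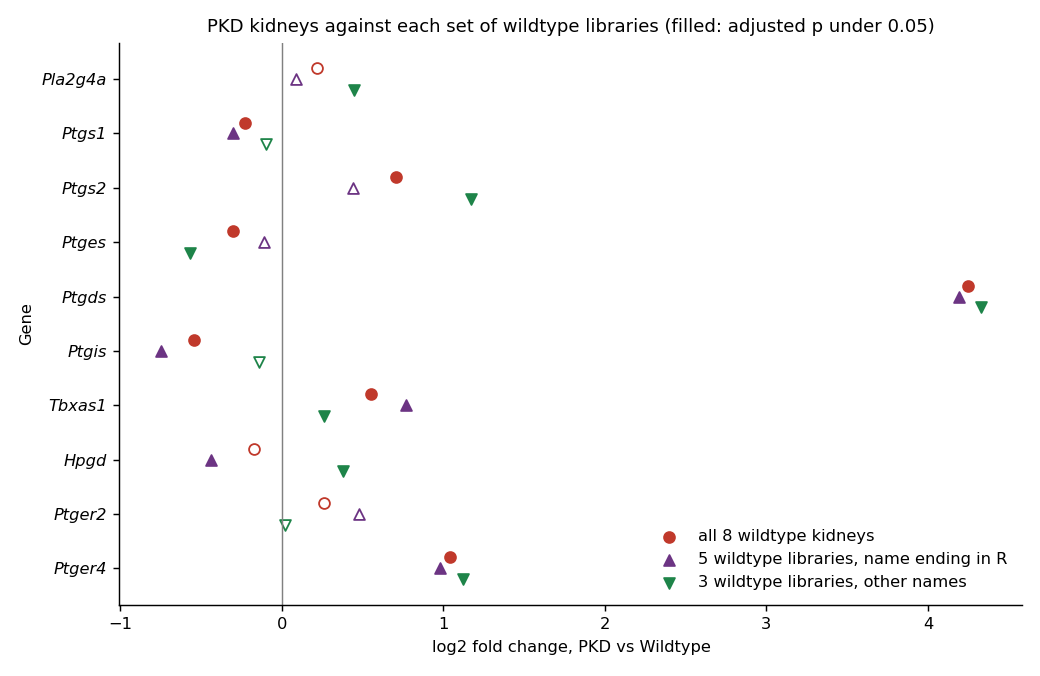
Log2 fold change of the 10 genes in PKD against wildtype kidneys, computed with all 8 wildtype kidneys (circles), with the 5 libraries that have a final R (upward triangles) or with the 3 others (downward triangles), with filled symbols for an adjusted p under 0.05. *Ptgds* and *Ptger4* keep nearly the same value in the 3 fits, while *Hpgd* lies at -0.44 and 0.38 on either side of 0.

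The wildtype sets differed in 4 of the 8 filtered members without overlap, and 43.8% of all tested genes were separated in the same way. *Ptgis* and *Hpgd* were higher and *Ptges* and *Tbxas1* lower in the libraries with R. With either set alone 6 filtered members were called, where 59.6% of tested genes were called against the libraries with R (30.7% higher, 28.9% lower) and 40.8% against the others (20.9% higher, 19.9% lower). Against the libraries with R these were *Ptgds*, *Tbxas1* and *Ptger4*, higher, and *Ptgs1*, *Ptgis* and *Hpgd*, lower. Against the others, *Ptgds*, *Tbxas1*, *Ptger4*, *Hpgd* and *Pla2g4a* were higher and *Ptges* was lower. In the fit of all genes with a count, *Ptgs2* was called only against the libraries without R (log2 fold change 1.17, edgeR adjusted p = 0.0186). The calls that both sets gave were therefore those of *Ptgds*, *Tbxas1* and *Ptger4*.

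These 3 genes rose together in PKD, and the bases before their starts are shown for that reason. The sequences are the 250 bases upstream of the RefSeq transcript start (GRCm38.p6 table), placed on GRCm39 by an exact match, 5′ to 3′ on the strand of the gene, at chr2:25359762-25360011 (minus strand) for *Ptgds*, chr6:38895670-38895919 (plus strand) for *Tbxas1* and chr15:5273669-5273918 (minus strand) for *Ptger4*. Capitals mark the motifs found.
Ptgds: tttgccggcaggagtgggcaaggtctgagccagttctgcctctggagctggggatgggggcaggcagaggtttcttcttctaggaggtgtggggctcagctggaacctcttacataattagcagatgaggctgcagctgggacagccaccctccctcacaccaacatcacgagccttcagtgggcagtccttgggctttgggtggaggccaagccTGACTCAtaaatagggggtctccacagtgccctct
Tbxas1: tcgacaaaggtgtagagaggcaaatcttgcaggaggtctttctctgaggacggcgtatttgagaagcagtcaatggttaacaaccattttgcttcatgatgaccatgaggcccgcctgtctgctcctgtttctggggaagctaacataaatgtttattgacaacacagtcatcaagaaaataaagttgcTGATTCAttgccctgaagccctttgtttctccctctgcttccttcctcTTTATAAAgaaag
Ptger4: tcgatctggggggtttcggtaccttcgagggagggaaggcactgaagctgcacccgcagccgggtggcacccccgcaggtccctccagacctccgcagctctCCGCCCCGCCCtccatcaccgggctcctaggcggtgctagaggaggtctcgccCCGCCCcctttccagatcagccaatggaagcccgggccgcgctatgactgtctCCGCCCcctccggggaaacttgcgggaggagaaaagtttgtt

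Motifs were searched as exact letters on both strands. The AP-1 site was spelled TGANTCA, and *Ptgds* and *Tbxas1* each held a match, at 35 to 29 and at 61 to 55 bases before the start, as did 6.75% of the 32851 promoter windows of this length. The TATA box was spelled TATAAA, and *Tbxas1* held it on both strands in overlapping letters between 13 and 6 bases before the start, and 12.4% of all windows held it on at least 1 strand. The GC box was spelled GGGCGG, and *Ptger4* held 4 of them on the other strand between 148 and 37 bases before the start, of which a pair shared 1 base, whereas 32.7% of windows held at least 1. The E-box, spelled CACGTG, was found in none of the 3 windows and in 6.02% of all windows. The core of the cyclic AMP response element, spelled TGACG, was also found in none of the 3 and in 17.8% of all windows. A match is a description of letters, and exons of other annotated transcripts of *Ptgds* (up to 250 bases), *Tbxas1* (up to 32 bases) and *Ptger4* (5 bases) reach into the windows, and an exon of the long noncoding RNA *Gm42962* on the opposite strand covers 140 bases of the *Tbxas1* window. The annotated genes of *Ptgds* (from 25362601, minus strand) and *Tbxas1* (from 38852203, plus strand) begin upstream of these windows, so that both windows lie inside the gene. Which start was used in these kidneys was not tested.

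**Figure D4:**
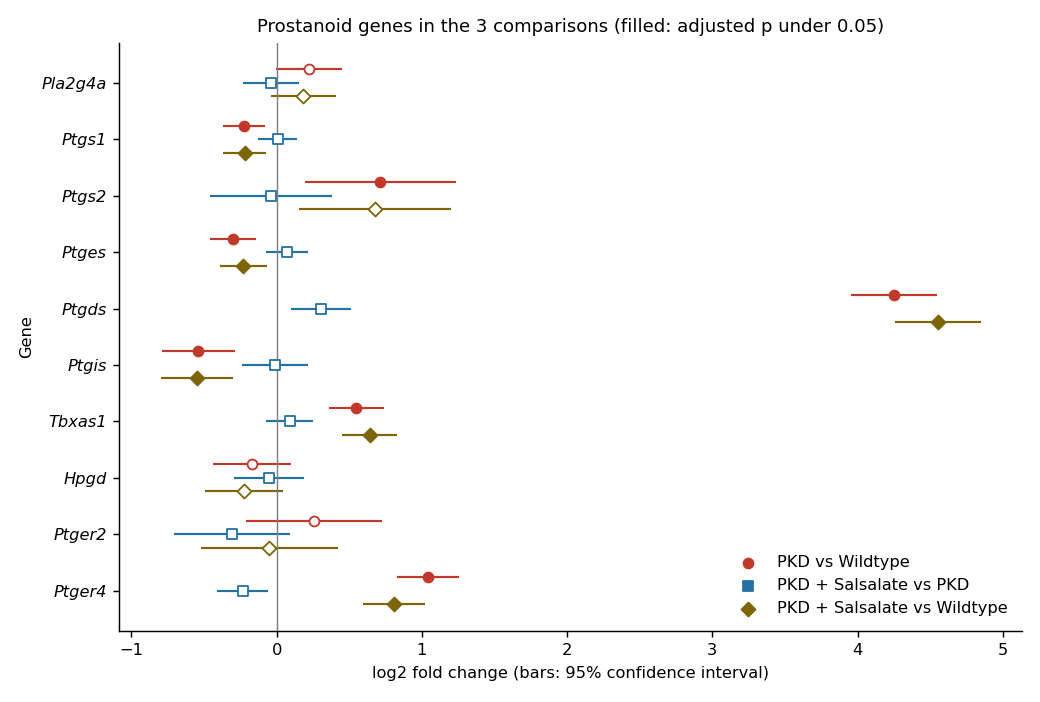
Log2 fold change of the 10 genes in PKD against wildtype, PKD + Salsalate against PKD and PKD + Salsalate against wildtype kidneys, with 95% confidence intervals and filled symbols for an adjusted p under 0.05. All values of PKD + Salsalate against PKD are open and lie between -0.31 and 0.31.

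Salsalate treatment addressed the question whether 2 weeks of a salicylate changed these genes in PKD kidneys. With edgeR 0 of the 8 filtered members were called between PKD + Salsalate and PKD kidneys, where 0.580% of tested genes were called. DESeq2 also called 0. Of the 8, 2 had an unadjusted p under 0.05 with edgeR, beside 1436 of all 13961 tested genes. The fit of all genes with a count called 0.357% of genes and neither *Ptgs2* nor *Ptger2*. The median log2 fold change was -0.00 over the 8 members and -0.01 over all tested genes.

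The cyclooxygenase genes differed little. For *Ptgs1* the log2 fold change with salsalate was 0.01 (95% confidence interval -0.13 to 0.14, edgeR adjusted p = 0.99), so that the interval spans little on either side of 0. For *Ptgs2* it was -0.04 with a wider confidence interval, from -0.46 to 0.38 (edgeR adjusted p = 1), on the few counts given above. *Ptgs1* was more spread among treated kidneys, where 5 of 12 lay below the lowest and 2 above the highest PKD kidney.

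The members with an unadjusted p under 0.05 were *Ptgds* and *Ptger4*. *Ptgds* was 1.24-fold higher with salsalate (log2 fold change 0.31, 95% confidence interval 0.10 to 0.51, unadjusted p = 0.00472, edgeR adjusted p = 0.176), with all 12 treated kidneys above the PKD median and 3 above the highest PKD kidney. *Ptger4* had a ratio of 0.850 (log2 fold change -0.23, 95% confidence interval -0.41 to -0.06, unadjusted p = 0.0111, edgeR adjusted p = 0.26), with 10 of 12 treated kidneys below the PKD median. Neither passed the correction, and both groups overlapped. Complete separation of the 2 PKD groups was rare, at 0.0287% of tested genes.

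No other member passed the test with salsalate. The intervals of the log2 fold change were -0.08 to 0.21 for *Ptges*, -0.24 to 0.22 for *Ptgis*, -0.07 to 0.25 for *Tbxas1*, -0.30 to 0.19 for *Hpgd* and -0.24 to 0.16 for *Pla2g4a*. *Ptger2* had a log2 fold change of -0.31 with a wide interval, -0.71 to 0.09 (edgeR adjusted p = 0.72), and its level was under the PKD median in 10 of the 12 treated mice. Differences of a size inside these intervals are not excluded.

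Treated kidneys were also compared with wildtype kidneys, which share the wildtype samples with the comparison above. Again 6 of the 8 filtered members were called, beside 44.9% of all tested genes, with 3 higher (21.8% of genes) and 3 lower (23.2% of genes). *Ptgds* was 23.5-fold higher (log2 fold change 4.55, 95% confidence interval 4.25 to 4.85, edgeR adjusted p = 3.25e-22). *Tbxas1* was 0.64 higher on the log2 scale (edgeR adjusted p = 1.18e-06), and *Ptger4* was 0.81 higher (edgeR adjusted p = 1.78e-07). The treated and wildtype ranges of these 3 genes did not overlap, as for 6.39% of tested genes.

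The lower members were *Ptgis* (-0.55, edgeR adjusted p = 0.000513), *Ptges* (-0.23, edgeR adjusted p = 0.0175) and *Ptgs1* (-0.22, edgeR adjusted p = 0.0138). The *Ptges* call was lost without wildtype replicate 6 (edgeR adjusted p = 0.0592) or 8 (edgeR adjusted p = 0.073), without the filter (-0.22, edgeR adjusted p = 0.0734) and against the libraries with R (-0.04, edgeR adjusted p = 0.664). Those of *Ptgs1* (-0.09, edgeR adjusted p = 0.436) and *Ptgis* (-0.14, edgeR adjusted p = 0.486) were lost against the libraries without R. *Ptgs2* missed the threshold in this comparison (0.68, edgeR adjusted p = 0.0583) in a fit that called 20.6% of genes, and DESeq2 placed it under the threshold (0.67, DESeq2 adjusted p = 0.0292). Against the libraries without R, *Ptgs2* (1.12, edgeR adjusted p = 0.0288) and *Pla2g4a* (0.42, edgeR adjusted p = 0.00698) were called higher. *Hpgd* was called lower against the libraries with R (-0.49, edgeR adjusted p = 0.000738) and higher against the others (0.33, edgeR adjusted p = 0.0256).

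**Figure D5:**
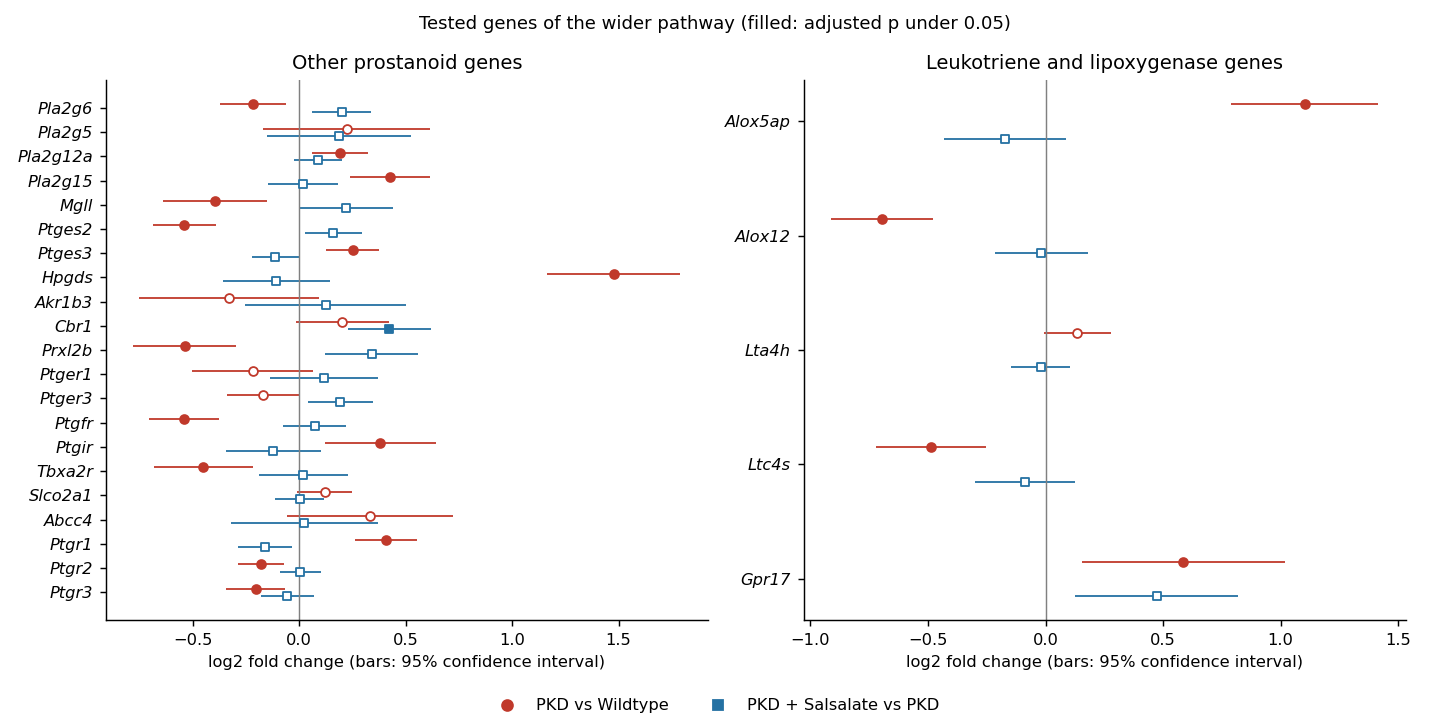
Log2 fold change with 95% confidence interval of the 21 other prostanoid genes and the 5 leukotriene and lipoxygenase genes that passed the filter, for PKD against wildtype (circles) and PKD + Salsalate against PKD kidneys (squares), with filled symbols for an adjusted p under 0.05. *Hpgds* at 1.48 and *Alox5ap* at 1.10 lie farthest to the right, and *Cbr1* is the only filled square.

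A list of 30 further prostanoid genes, of which 21 passed the filter, gave the surroundings of the members. In PKD against wildtype kidneys 14 of the 21 were called, 6 higher and 8 lower, with a median log2 fold change of -0.17, beside 49.1% of all tested genes called, 24.1% higher and 25.0% lower. The split changed with the wildtype set, to 9 higher and 5 lower against the libraries with R and to 3 higher and 8 lower against the others, beside the shares of all genes given above for each set. *Hpgds*, the hematopoietic prostaglandin D synthase of mast cells, macrophages and some T cells, rose most. It was between 2.41 and 6.98 CPM in wildtype kidneys with a median of 4.22 and between 9.84 and 16.2 CPM in PKD kidneys with a median of 11.9. These ranges did not overlap, as for 7.28% of tested genes. The log2 fold change was 1.48 (95% confidence interval 1.16 to 1.79, edgeR adjusted p = 1.84e-09), with a call against either wildtype set. Both genes that make prostaglandin D were thus higher in PKD kidneys, by 4.25 for *Ptgds* and 1.48 for *Hpgds* on the log2 scale. The receptors of prostaglandin D, *Ptgdr* and *Ptgdr2*, did not pass the filter and had mean levels of at most 0.00961 CPM in each group.

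The macrophage markers named beside *Tbxas1* rose by log2 fold changes of 0.44 to 2.24, and 7 of 7 fibroblast markers rose by 0.39 to 2.32. All 10 macrophage markers were also called higher against either wildtype set, and of the fibroblast markers 5 were against the libraries with R and 6 against the others. The value of *Ptgds*, 4.25, was above that of each of these markers, and the value of *Hpgds* was within their range. Of the 4 mast cell markers *Kit*, which other cells express too, made up nearly all of the summed level (mean 14.0 CPM in wildtype and 16.0 CPM in PKD kidneys; log2 fold change 0.18, edgeR adjusted p = 0.136). The defining markers *Mcpt4* (-2.23, edgeR adjusted p = 0.0125), *Cpa3* (-1.28, edgeR adjusted p = 0.215) and *Tpsb2* (-0.83, edgeR adjusted p = 0.242) were each below 0.2 CPM on average in each group. The *Mcpt4* call was lost against the libraries without R (-1.70, edgeR adjusted p = 0.219). *Kit* was called higher against those with R (0.38, edgeR adjusted p = 0.00298). All 4 markers of the distal convoluted tubule (3 against the libraries without R) and all 4 of intercalated cells fell, by 0.50 to 1.76 and by 0.69 to 1.46 on the log2 scale. The part of these cells in the prostanoid values was not tested.

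Among the prostanoid receptors, *Ptgfr*, for prostaglandin F, fell from 24.6 ± 4.01 (SD, n = 8) to 16.8 ± 1.54 CPM (SD, n = 12; log2 fold change -0.54, edgeR adjusted p = 1.61e-06). *Tbxa2r*, for thromboxane, fell as well (-0.45, edgeR adjusted p = 0.00158), in the kidneys where thromboxane synthase was higher, but the call was lost against the libraries without R (-0.19, edgeR adjusted p = 0.322). *Ptgir*, for prostacyclin, rose (0.38, edgeR adjusted p = 0.0137), in the kidneys where prostacyclin synthase was lower, and this call too was lost against the libraries without R (0.32, edgeR adjusted p = 0.164). *Ptger1* and *Ptger3*, the remaining prostaglandin E receptors, had log2 fold changes of -0.22 (edgeR adjusted p = 0.194) and -0.17 (edgeR adjusted p = 0.0969), and both were called lower against the libraries without R (-0.64, edgeR adjusted p = 0.000587, and -0.37, edgeR adjusted p = 0.00615). *Prxl2b*, a prostamide and prostaglandin F synthase, fell by 0.54 (edgeR adjusted p = 0.000391) with all wildtype kidneys but was -0.19 against the libraries without R (edgeR adjusted p = 0.26).

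With salsalate, 1 of the 21 genes was called, beside 0.580% of all tested genes. An unadjusted p under 0.05 with edgeR was found for 7 of the 21, beside 1436 of all 13961 tested genes. The median log2 fold change was 0.07 over the 21 genes and -0.01 over all tested genes. *Cbr1*, a carbonyl reductase that converts prostaglandin E into prostaglandin F and reduces many other carbonyl compounds, was between 32.1 and 56.3 CPM in wildtype kidneys with a median of 40.1, between 34.7 and 56.2 CPM in PKD kidneys with a median of 46.9 and between 49.6 and 92.4 CPM in PKD + Salsalate kidneys with a median of 60.4. It rose by a log2 fold change of 0.42 (95% confidence interval 0.23 to 0.62, edgeR adjusted p = 0.0273). The call was lost without PKD replicate 1 (0.42, edgeR adjusted p = 0.051) or PKD + Salsalate replicate 1 (0.36, edgeR adjusted p = 0.0574). In PKD against wildtype kidneys its log2 fold change was 0.20 (edgeR adjusted p = 0.12).

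The neighbouring branch of arachidonic acid metabolism, the lipoxygenases and leukotrienes, had 5 of its 12 listed genes above the filter. In PKD kidneys 2 rose and 2 fell, beside 24.1% of all tested genes called higher and 25.0% called lower, and against the libraries without R 1 rose and 1 fell. *Alox5ap*, which presents arachidonic acid to 5-lipoxygenase in leukocytes, rose from 3.89 ± 1.31 (SD, n = 8) to 8.27 ± 1.14 CPM (SD, n = 12; log2 fold change 1.10, edgeR adjusted p = 5.02e-07). *Gpr17*, a receptor related to those for leukotrienes, rose by 0.59 (edgeR adjusted p = 0.0221). It lay near the filter, with means of 0.886 CPM in wildtype, 1.41 CPM in PKD and 1.93 CPM in PKD + Salsalate kidneys. Its highest wildtype level was 1.42 CPM, so that it passed the filter through the PKD groups. In a fit of wildtype and PKD kidneys alone it did not pass the filter and has no value. The *Gpr17* call was lost without wildtype replicate 3 (0.50, edgeR adjusted p = 0.0528) and against the libraries without R (0.28, edgeR adjusted p = 0.445). *Alox12*, the platelet 12-lipoxygenase, fell from 6.75 ± 0.88 (SD, n = 8) to 4.14 ± 0.74 CPM (SD, n = 12; -0.69, edgeR adjusted p = 2.66e-06), and *Ltc4s*, leukotriene C synthase, fell by 0.49 (edgeR adjusted p = 0.000756), a call lost against the libraries without R (-0.36, edgeR adjusted p = 0.0531). None of the 5 was called between PKD + Salsalate and PKD kidneys by edgeR. An unadjusted p under 0.05 was found for 1 of them, beside 1436 of all 13961 tested genes.

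For the cyclooxygenase genes, the tested genes with the most similar pattern were taken by Pearson's r of log2 CPM over the 24 PKD and PKD + Salsalate kidneys, as a description. For *Ptgs1* these were *Tonsl* (r = 0.786), *Dop1b* (r = 0.742) and *Zfp865* (r = 0.730). For *Ptgs2* they were *Brwd3* (r = 0.666), *Alg9* (r = 0.650) and *Cdc23* (r = 0.643). Each was chosen as the highest among all tested genes, the points share their libraries and depth, and the counts of *Ptgs2* were few.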

How the data were processed

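Poly(A) RNA of 32 mouse kidneys was sequenced with a directional kit. The authors aligned reads with STAR 2.7.5a to GRCm39, counted them by strand with HTSeq 0.12.4 on Ensembl genes and deposited raw counts per gene without normalization. The tool versions follow the submitters' processing notes. Depth was 11193136 to 109807664 counts on genes per kidney, and counting error is therefore largest for *Ptgs2* and *Ptger2*. Of the alignments, 73.6% to 83.1% were on genes, and the 5 summary lines of the table were left out.

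Groups came from the sample labels. Analysis used R 4.3.3 and edgeR 4.0.16 (DESeq2 1.42.0 as an alternative). Following the paper, the filter required a value above 1 on the log2 CPM scale in 25% or more of the kidneys, and TMM normalization and 1 quasi-likelihood fit of the 3 groups without covariates gave 3 contrasts tested 2-sided, with Benjamini-Hochberg adjustment over 13961 genes and a threshold of 0.05. Members below the filter were tested among the 33588 genes with a count. Standard errors were derived from the F statistic. The method was tested on simulated counts. The 10 members, the other lists and the rule for named genes were chosen with earlier results of these data known. The rule named all members, genes of the wider lists called in PKD against wildtype with a log2 fold change beyond 0.5 or called with salsalate, and the 3 genes most like *Ptgs1* and *Ptgs2*. Other list genes and markers were named after their values were seen, to describe prostaglandin receptors, synthases and cells beside a member. Positions and lengths are from GENCODE M39 (GRCm39), in which 52610 of 53700 identifiers were found, and the authors used another release of the annotation. One listed gene, *Akr1b3*, was matched through its synonym. Per the paper, the 32 libraries came from 32 mice. Same-numbered kidneys did not pair, as the correlation of their deviations from the group means was above 0.1 in 8 of 28 pairs. Alternatives were DESeq2 size factors and Wald test, filterByExpr, no filter, only the groups compared, the replicate block, each kidney left out, and either set of wildtype libraries.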

Additional observations from a re-analysis of the deposited data

How the results depend on the processing

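The number of members called stayed within 5 to 7 in each comparison with wildtype and at 0 between the PKD groups under all alternatives, although the genes behind it changed with the wildtype libraries used. Calls of *Ptgds*, *Tbxas1* and *Ptger4* against wildtype kept their side of the threshold and their direction in every fit. The number of genes called between PKD + Salsalate and PKD kidneys, 81 in the analysis reported, was 199 with DESeq2, 195 with only those kidneys, 145 and 257 with only the wildtype libraries with or without R, and between 39 and 226 with 1 kidney left out, the latter without PKD + Salsalate replicate 11. The replicate block gave 48. Of the wider prostanoid list, 1 gene was called with salsalate in the analysis reported, 2 with only those kidneys, 3 with only the wildtype libraries without R, and 0 to 1 with 1 kidney left out.

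Directions turned for *Hpgd* against the wildtype libraries without R (0.38 in PKD and 0.33 in PKD + Salsalate kidneys on the log2 scale) and for *Ptger2* in PKD + Salsalate against wildtype kidneys, at 0.18 with only the libraries with R, 0.05 under the replicate block and -0.14 to 0.02 with 1 kidney left out. Values near 0 between the PKD groups also changed sign with 1 kidney left out: *Ptgs1* at -0.02 to 0.03, *Ptgs2* at -0.10 to 0.03, *Ptgis* at -0.05 to 0.04 and *Pla2g4a* at -0.07 to 0.00. Under the replicate block *Ptges* lost its call in PKD + Salsalate against wildtype kidneys (-0.22, edgeR adjusted p = 0.0549) and *Ptgs2* lost its call in PKD kidneys, and no other call of a member changed. Without the filter, *Ptges* lost the same call (-0.22, edgeR adjusted p = 0.0734). *Ptger2* has no value under filterByExpr because it did not pass that filter. The cause of these changes was not tested. Depth limits *Ptgs2* and *Ptger2* most.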
